A study of Mus musculus with 18 samples.

Results

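Small RNAs cut from tRNAs (tsRNAs) were compared in mouse lung between all 6 libraries from smoke-exposed animals and the 3 libraries from control animals. These 9 tsRNA libraries were chosen by their labels alone, out of 18 libraries in the series. All 193 listed tsRNAs were taken as members, and the 191 that passed a filter on low counts were tested. The 2 left untested, tRF-+1:T17-Arg-ACG-3 and tRF-+1:T16-Cys-GCA-3-3, averaged 5.41 and 3.08 deposited CPM (counts scaled to mapped reads). Control mice received phosphate-buffered saline (PBS) and no smoke. The COPD model mice, a model of chronic obstructive pulmonary disease, breathed cigarette smoke, were injected intraperitoneally with cigarette smoke extract, and received PBS. The BMSC-treated mice had the same smoke and extract and then 4000000 mesenchymal stem cells, called BMSCs in the labels, in 100 µl PBS through a tail vein. Each group had 3 libraries, so the smoke-exposed set held 3 libraries with stem cells and 3 without, and the contrast gave both groups equal weight. Smoke inhaled and extract injected cannot be told apart in this design. The labels state neither strain, age and exposure time nor the number of mice behind a library, so the p-values measure the spread between libraries, which may be technical in part.

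A tRNA is cut at several places, and each kind of product is named by its position. Nucleases such as angiogenin, which is activated by stress, cut the anticodon loop and leave long stress-induced pieces, tiRNA-5 from the 5′ side and tiRNA-3 from the 3′ side. Shorter 5′ fragments are called tRF-5a, tRF-5b and tRF-5c in order of length, fragments that reach the CCA end of the mature tRNA are tRF-3a and tRF-3b, and tRF-2 is an internal piece. A tRF-1 is the trailer that RNase Z removes from the 3′ side of a precursor tRNA, and it ends in the run of T at which RNA polymerase III stops. The tiRNAs of glycine and glutamate tRNAs are abundant in many mouse tissues, and tiRNA-5 are known to hold back translation under stress. The listed tsRNAs were 84 tRF-5c, 32 tiRNA-5, 27 tRF-1, 17 tRF-5a, 11 tRF-3a, 10 tRF-5b, 6 tRF-2, 3 tRF-3b and 3 tiRNA-3. In the names, tRF-1:16 means bases 1 to 16 of the mature tRNA and not the trailer type, whose names begin with tRF-+1. Nuclear tRNAs gave 147 of them and mitochondrial tRNAs 46, and 143 began at the first base of the mature tRNA.

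The sequences on which the comparisons turn are given 5′ to 3′ as the deposited table lists them. The first 5 lines show the dominant glycine tRNA, with its anticodon in capitals, and its 4 longest abundant 5′ fragments, which share a start and differ in the bases after base 30, in capitals.
tRNA-Gly-GCC-2-1: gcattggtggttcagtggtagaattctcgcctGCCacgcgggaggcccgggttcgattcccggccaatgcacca
tRF-1:30-Gly-GCC-2-M3: gcattggtggttcagtggtagaattctcgc
tRF-1:31-Gly-GCC-2-M3: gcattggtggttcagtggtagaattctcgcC
tRF-1:32-Gly-GCC-2-M3: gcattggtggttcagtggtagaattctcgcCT
tiRNA-1:33-Gly-GCC-2-M3: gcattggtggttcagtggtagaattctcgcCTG
The anticodon began at base 33, so the fragment of 32 bases ended just before it and the tiRNA of 33 bases took in its first base. The next 3 lines are the short leucine fragments with the smallest p values among tRF-5a, with the 2 positions at which they differ in capitals (bases 6 and 16).
tRF-1:16-Leu-AAG-1-M2: ggtagCgtggccgagC
tRF-1:16-Leu-TAG-3: ggtagCgtggccgagT
tRF-1:16-Leu-AAG-2-M3: ggtagTgtggccgagC
Trailers of the initiator methionine and threonine precursors follow, with the T run at their end in capitals.
tRF-+1:T15-iMet-CAT-1: tcggaggctttgTTT
tRF-+1:T16-iMet-CAT-1: tcggaggctttgTTTT
tRF-+1:T30-Thr-CGT-1: gccctctttccgtgtggatttaagaaTTTT
tRF-+1:T31-Thr-CGT-1: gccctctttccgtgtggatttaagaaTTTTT
tRF-+1:T32-Thr-CGT-1: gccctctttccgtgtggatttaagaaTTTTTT
The 5 fragments with the smallest p values among those lower in smoke-exposed lungs are shown with the seed, bases 2 to 8, in capitals, since seed pairing is one way in which tsRNAs are thought to find targets.
tRF-1:23-Gly-ACC-1: gTTTCCGTagtgtagtggttagc
tiRNA-1:34-Val-AAC-1: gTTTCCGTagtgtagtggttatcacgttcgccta
tiRNA-1:33-Gly-CCC-3-M2: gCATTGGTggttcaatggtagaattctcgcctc
tRF-1:29-Glu-CTC-2: tCCCTGGTggtctagtggttaggatttgg
tRF-1:29-Asp-GTC-3: tCCTCGTTagtatagtggtgagtatccct
The last 4 lines are mitochondrial, first the most abundant one with its anticodon in capitals, then 3 short fragments with their seeds in capitals.
tRF-1:22-chrM.Ser-GCT: aagaaagattgcaagaactGCT
tRF-1:15-chrM.Gln-TTG: tAGGATAAggtgttt
tRF-1:15-chrM.Ile-GAT: aGAAATATgtctgat
tRF-1:16-chrM.Glu-TTC: gTTTCTGTagttgaat
Several tRNA genes encode the same mature tRNA, and 44 of the 193 tsRNAs matched more than 1 parent sequence and 16 more than 1 anticodon class. RefSeq lists 14 mouse genes for tRNA-Gly-GCC, 5 for Leu-AAG, 4 for Thr-CGT and 1 for Gly-ACC, on chromosome 11. The fragments of Leu-AAG-1 and Leu-AAG-2 each matched tRNAs of both the Leu-AAG and the Leu-TAG class, so their gene of origin is uncertain. The mitochondrial parents are single genes on chromosome MT of mm10, TrnS2 at 11613 to 11671, TrnQ at 3772 to 3842, TrnI at 3706 to 3774 and TrnE at 14071 to 14139.

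The libraries held 440448 to 1742029 counts of listed tsRNAs, which was 42.6% to 70.6% of their mapped reads. A single library in each group was shallow: control 2, COPD model 3 and BMSC-treated 2 held 440448 to 618572 counts, against 1137825 or more in the other 6. In these 3 libraries the mitochondrial share of listed counts was 11.1% to 23.5% and the trailer (tRF-1) share 0.251% to 0.571%, against 5.08% to 7.24% and 0.0517% to 0.123% in the others. The shallow libraries fell 1 to a group, so this difference in make-up was spread over all groups, and results that rest on them are given with and without them. The mRNA table of the series listed all 10 lung markers looked up, such as Scgb1a1 of club cells and Sftpc of alveolar type 2 cells. Alb of liver reached at most 3.72 FPKM, and Acta1 of skeletal muscle and Prss1 of pancreas were not listed. Some lung markers varied widely between mRNA libraries, with Scgb1a1 at 6546 to 248461 FPKM and Foxj1 of ciliated cells at 1.33 to 100. Whether mRNA and tsRNA libraries share mice was not established here. The samples are whole lungs, in which fewer cells of a type and less of an RNA per cell cannot be told apart.

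**Figure D1:**
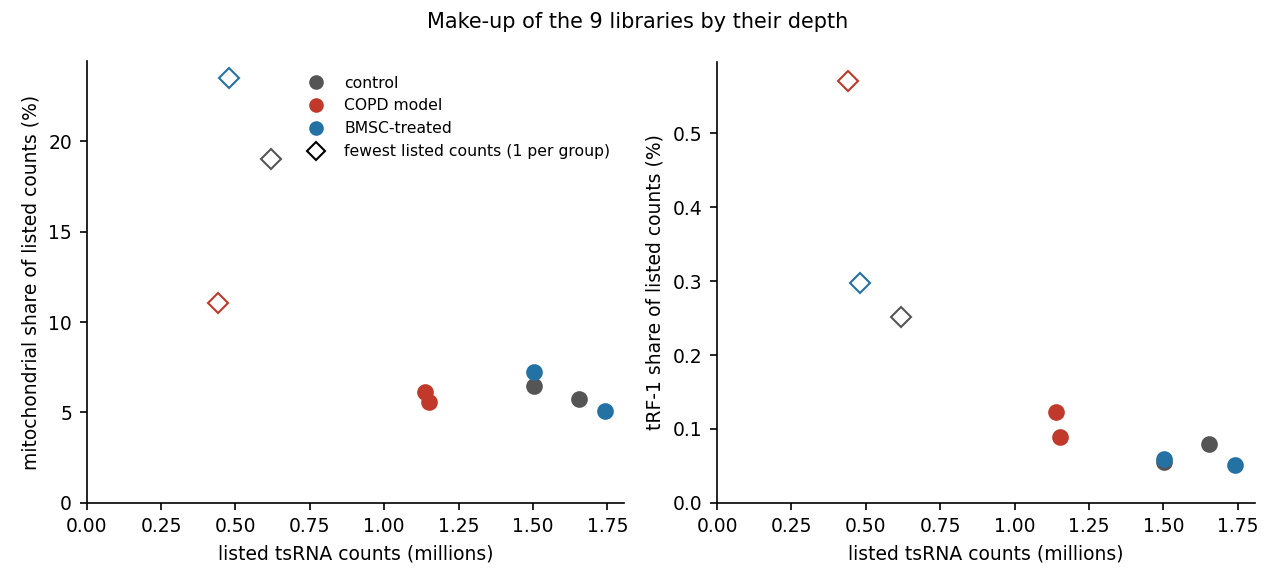
Share of listed counts from mitochondrial tRNAs (left, %) and from precursor trailers, tRF-1 (right, %), against the listed tsRNA counts of each of the 9 libraries (x axis). Colours mark the groups and open diamonds the library of fewest counts in each group, which lie at 11.1% to 23.5% and 0.251% to 0.571%, above the other 6 libraries in both panels.

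The pooled comparison asks whether smoke exposure, with or without stem cells, goes with a different set of tRNA fragments. No tsRNA passed an adjusted p of 0.05 in edgeR's quasi-likelihood test (0 of 191, or 0%, smallest adjusted p = 0.734), and DESeq2 called 0 as well (smallest adjusted p = 0.196). At an unadjusted p below 0.05 there were 6 of 191 (3.14%) in each of these tools, with 5 higher (2.62%) and 1 lower (0.524%) in edgeR. The estimated log2 changes ran from -1.33 to 1.75, with a median of 0.19, 122 above 0 and 69 below. In all, 9 tsRNAs were estimated past 2-fold higher and 4 past 2-fold lower. The median standard error was 0.56 on the log2 scale and the median coefficient of variation within groups was 50.4%, so a typical change of 2-fold was less than 2 standard errors wide and was not detectable with these libraries.

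**Figure D2:**
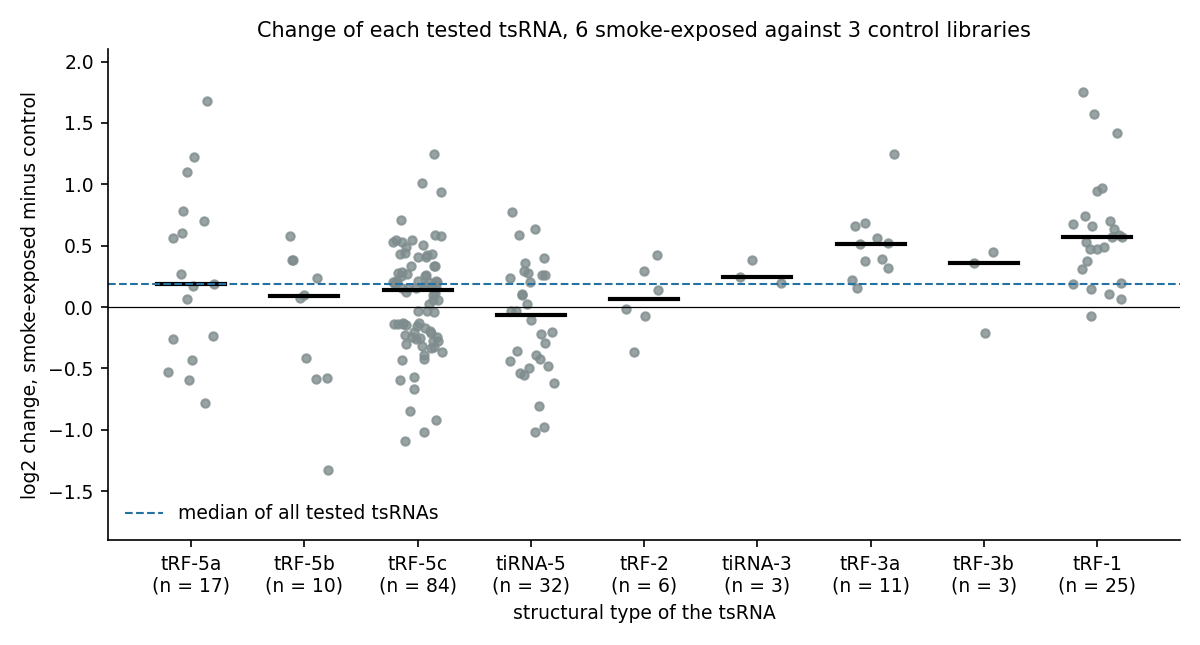
Log2 change of each of the 191 tested tsRNAs in smoke-exposed against control lungs (y axis), by structural type (x axis, with the number tested). Black bars are the medians of each type and the dashed line the median of all tested tsRNAs, 0.19, and the trailers (tRF-1, median 0.57) and tRF-3a (0.51) lie mostly above it.

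A single tsRNA had no overlap between the 6 smoke-exposed and the 3 control libraries (1 of 191, 0.524%): the short 5′ leucine fragment tRF-1:16-Leu-AAG-1-M2. Leucine tRNA 5′ fragments of this kind end in the D-loop. Its level was 51.5, 44.5 and 51.2 CPM (scaled by TMM, the trimmed mean of M values) in controls 1 to 3, 97.7, 75.9 and 119 in the COPD model libraries and 219, 83.96 and 455 in the BMSC-treated libraries. All 6 smoke-exposed libraries thus lay above all controls, and the widest gap was in BMSC-treated 1 and 3. The fitted difference was 1.68 ± 0.57 (SE) on the log2 scale, unadjusted p = 0.00495 and adjusted p = 0.734 (edgeR), and over the alternatives it ranged from 1.14 to 1.88 with adjusted p of 0.134 or more. It was also without overlap under DESeq2 size factors and in the deposited CPM, but overlapped as a share of listed counts. On that last scale 0 tsRNAs were higher without overlap, and the only one lower was tRF-1:29-Asp-GTC-3.

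The other 16-base leucine fragments printed above had estimates in the same direction. The fragment tRF-1:16-Leu-TAG-3, which has the same seed, was at 41.5, 70.4 and 81.1 CPM in controls, 96.6, 74.1 and 147 in the COPD model and 189, 73.8 and 283 in BMSC-treated lungs. The fragment tRF-1:16-Leu-AAG-2-M3 was at 12.6, 22.2 and 31.2 CPM in controls, 28.2, 22.9 and 47.7 in the COPD model and 82.3, 66.6 and 98.1 in BMSC-treated lungs. In both, 4 of the 6 smoke-exposed libraries lay above all controls and the others overlapped them. Their log2 differences were 1.10 ± 0.55 and 1.22 ± 0.58 (unadjusted p = 0.0499 and 0.0421 in edgeR), and neither passed adjustment (adjusted p = 0.934). The tiRNA-5 with the seed of Leu-AAG-1, tiRNA-1:35-Leu-TAG-3, had a pooled log2 difference of 0.26, from 1.11 in the COPD model and -0.60 in BMSC-treated lungs. Of the 6 leucine tRF-5a, 5 had estimates above 0, with a median of 0.90 against 0.19 for all tested tsRNAs, and the median was 1.10 without the 3 shallow libraries. Against the controls, the median of these 6 was 0.40 in the COPD model (0.17 without control 1 and 0.17 without control 3) and 1.33 in BMSC-treated lungs, 2 comparisons that share the control libraries.

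The trailers of the initiator methionine precursor were the other tsRNAs higher at an unadjusted p below 0.05. The trailer tRF-+1:T16-iMet-CAT-1 was at 19.9, 9.27 and 12.3 CPM in controls, 47.8, 77.7 and 123 in the COPD model and 24.9, 39.1 and 16.2 in BMSC-treated lungs. All 3 COPD model libraries were above every control, and BMSC-treated 3 fell within the control range. The log2 difference of all smoke-exposed lungs was 1.75 ± 0.63, unadjusted p = 0.00768 and adjusted p = 0.734, and from 1.01 to 2.09 over the alternatives. Its highest value was in COPD model 3, and without the 3 shallow libraries the difference was 1.14 (unadjusted p = 0.0374). The form 1 base shorter, tRF-+1:T15-iMet-CAT-1, was at 9.93, 16.7 and 15.3 CPM in controls, 46.7, 88.3 and 143 in the COPD model and 19.7, 33.3 and 4.50 in BMSC-treated lungs, where BMSC-treated 3 was below all controls. Its difference was 1.57 ± 0.65 (unadjusted p = 0.0197, adjusted p = 0.934 in edgeR), from 0.88 to 1.98 over the alternatives and 1.16 without the shallow libraries (unadjusted p = 0.0734). The 2 forms share a precursor and nearly all of their bases, so they are not independent. In the COPD model alone their log2 differences were 2.57 and 2.71, and in BMSC-treated lungs 0.93 and 0.42.

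Trailers as a kind were mostly estimated higher. Of the 25 tested tRF-1, 24 had estimates above 0, with a median of 0.57 against 0.19 for all, and 0 passed the test. Without COPD model 3 this was 13 of 25 with a median of 0.24, without control 3 it was 17 of 26 with 0.13, and without BMSC-treated 2 it was 17 of 26 with 0.27. Leaving out control 1 gave 19 of 26 with 0.32, and leaving out control 2 gave 25 of 25 with 1.04. The most abundant trailer, tRF-+1:T22-Arg-ACG-1-3, was at 269, 416 and 243 CPM in controls, 347, 354 and 1041 in the COPD model and 288, 808 and 292 in BMSC-treated lungs. Its 3 highest values were in the 3 shallow libraries, and its log2 difference was 0.74 with all libraries and 0.29 without those. The median of the trailers was above that of all tsRNAs in 20 of 20 fits, by 0.12 to 0.92. These fits reuse the same libraries, and many trailers are nested forms of 1 precursor, so neither are independent. The fit of tsRNAs with a mean of at least 100 counts held only 3 trailers. Without the 3 shallow libraries, 19 trailers could be tested, 14 had estimates above 0, and their median was 0.33 against -0.02 for all tsRNAs. The 11 tRF-3a, 3′ fragments that begin in the T-loop, all had estimates above 0 (median 0.51), but without the shallow libraries 3 of 10 did and the median was -0.03. Leaving out 1 library gave medians of 0.04 (COPD model 3), 0.11 (control 3), 0.28 (BMSC-treated 2) and 0.29 (control 1). The share of listed counts taken by tRF-3a was 0.0592% to 0.109% in the shallow libraries and 0.0154% to 0.0278% in the others.

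Only 1 of the 6 tsRNAs with an unadjusted p below 0.05 was lower in smoke-exposed lungs, tRF-1:23-Gly-ACC-1. Its sequence differs at 1 base from the first 23 bases of the valine fragment tiRNA-1:34-Val-AAC-1 printed above. The valine form of that length, tRF-1:23-Val-AAC-1-M4, averaged 671 CPM, against 37.7 for the glycine form. Whether reads of the valine form were counted as the glycine form was not tested. This 5′ glycine fragment was at 52.4, 22.2 and 112 CPM in controls, 32.6, 53.0 and 11.9 in the COPD model and 22.3, 17.4 and 16.2 in BMSC-treated lungs. COPD model 1 and 2 and BMSC-treated 1 overlapped the controls. The log2 difference was -1.33 ± 0.58 (unadjusted p = 0.0261, adjusted p = 0.934 in edgeR) and -1.51 without the shallow libraries. Of the 6 fragments that share its seed, 1 had an estimate above 0 and 5 below. The one above was tRF-1:15-Gly-ACC-1-M8, at 0.78, which is nested in it and also matches valine tRNAs, and the 5 below were valine fragments, from -0.97 to -0.14. The 4 of them from Val-AAC had a median of -0.39, which was -0.26 without COPD model 3, -0.25 without BMSC-treated 2 and -0.15 without the shallow libraries. The valine tiRNA-5 tiRNA-1:34-Val-AAC-1 shows how far 1 library can carry such a value. It was at 41.5, 254 and 39.98 CPM in controls, 74.9, 63.6 and 136 in the COPD model and 25.7, 33.3 and 46.8 in BMSC-treated lungs. Its difference was -0.97 with all libraries, and 0.48 without control 2 and 0.27 without the 3 shallow libraries, so it turned direction.

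Glycine fragments listed as tiRNA-5 had estimates below 0 in 6 of 6 cases, with a median of -0.51 against 0.19 for all tested tsRNAs. Without the shallow libraries 5 of 6 did. In the dominant Gly-GCC-2 series the tiRNA of 33 bases held 1.04% to 4.15% of listed counts, against 28.2% to 51.0% for the fragment of 32 bases. Of the 13 tested Gly-GCC fragments of all types, 8 had estimates above 0 and 5 below. The lowest estimate among the 6 tiRNA-5 was for tiRNA-1:33-Gly-CCC-3-M2. It was at 1341, 451 and 1418 CPM in controls, 589, 1102 and 222 in the COPD model and 539, 428 and 343 in BMSC-treated lungs. Controls 1 and 3 stood above all smoke-exposed libraries and control 2 within them. The log2 difference was -1.02 ± 0.51 (unadjusted p = 0.0533, adjusted p = 0.934 in edgeR) and -1.20 without the shallow libraries (unadjusted p = 0.0015, adjusted p = 0.138). The 14 fragments with its seed did not share that direction, with 11 estimates above 0 and 3 below. The forms of 30, 31 and 32 bases nested in it (the tRF-5c fragments of Gly-CCC-3-M2) were at 0.44, 0.28 and 0.06. The median of the 6 glycine tiRNA-5 was below 0 in 20 of 20 fits, from -0.81, without COPD model 2, to -0.47. These fits, too, reuse the same libraries. The aspartate fragments had 0 of 8 estimates above 0 and a median of -0.39. Single libraries moved that median to -0.16 with 2 of 8 above 0 (without control 1), -0.20 (without COPD model 3), -0.69 (without control 2) and -0.75 (without COPD model 2). Among them tRF-1:29-Asp-GTC-3 was at 43.3, 15.8 and 42.3 CPM in controls, 15.2, 17.7 and 10.2 in the COPD model and 32.6, 5.79 and 12.6 in BMSC-treated lungs, a log2 difference of -1.09 (unadjusted p = 0.0923 in edgeR). The glutamate fragment tRF-1:29-Glu-CTC-2 was at 123, 13.9 and 181 CPM in controls, 56.5, 67.1 and 66.5 in the COPD model and 90.9, 17.4 and 19.8 in BMSC-treated lungs. All smoke-exposed values of that fragment lay inside the wide control range, and its difference was -1.02 (unadjusted p = 0.0874). Of the 13 fragments with its seed, 5 had estimates above 0 and 8 below.

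**Figure D3:**
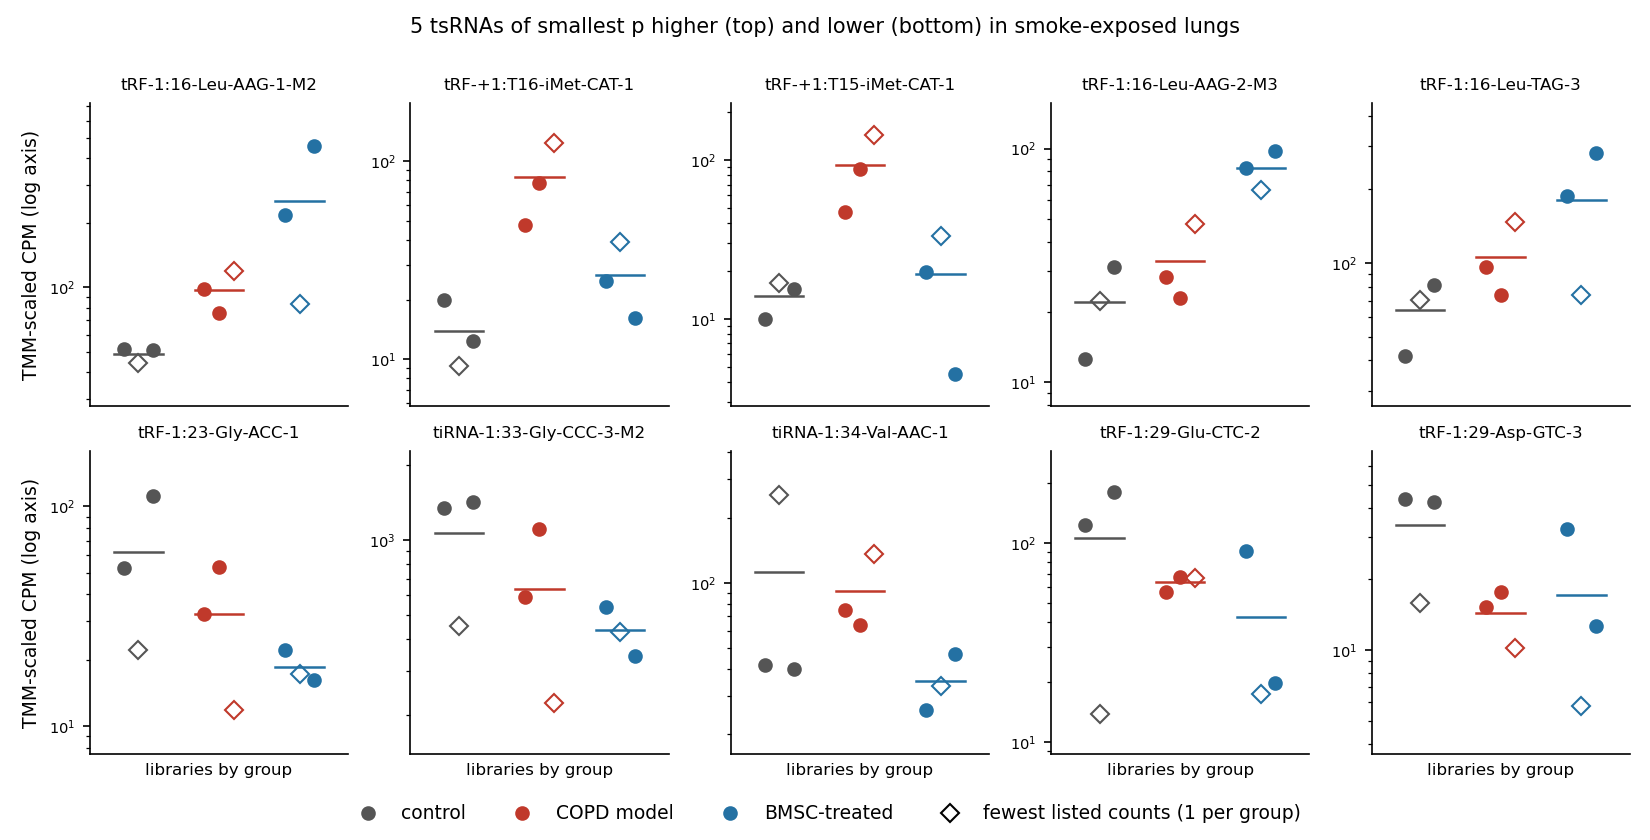
TMM-scaled CPM (log axis) of the 5 tsRNAs of smallest p among those higher in smoke-exposed lungs (top) and the 5 among those lower (bottom), 1 point per library, with open diamonds for the library of fewest counts in each group and lines for the group means. Only tRF-1:16-Leu-AAG-1-M2 has all 6 smoke-exposed libraries above all 3 controls, and none of the 10 passed an adjusted p of 0.05.

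A few glycine fragments made up most of the counts in every library. The 10 most abundant tsRNAs of a library made up 91.0% to 94.3% of its listed counts. Fragments of tRNA-Gly-GCC alone took 65.0% to 89.0%, with a mean of 80.9% in control and 82.0% in smoke-exposed lungs (exact permutation test, two-sided, p = 0.952, n = 3 and 6). The most abundant was tRF-1:32-Gly-GCC-2-M3, with 41.6%, 35.8% and 40.3% of listed counts in controls, 51.0%, 45.8% and 44.0% in the COPD model and 33.03%, 28.2% and 35.1% in BMSC-treated lungs. The mitochondrial fragment tRF-1:22-chrM.Ser-GCT, which ends with the last base of the anticodon, was next outside glycine, at 4.32% to 20.02%, with its highest shares in control 2 and BMSC-treated 2. The fragment tiRNA-1:34-Glu-CTC-1 had 1.03% to 3.61% and tiRNA-1:34-Lys-CTT-2 0.739% to 2.84%. Between smoke-exposed and control lungs no difference passed the test in the shares of 9 structural types, in the shares of 25 parent classes with at least 3 tsRNAs, or in 6 whole-library measures (two-sided exact permutation tests of 6 against 3 libraries, smallest adjusted p = 0.976, 0.952 and 0.976, with 0 at an unadjusted p below 0.05). The smallest p this design can give is 0.0238, so a single share or measure could not pass adjustment whatever its size. That 0 passed therefore does not show that the shares were equal. Mean fragment length was 30.6 ± 0.596 bases in control and 30.6 ± 0.578 in smoke-exposed libraries (SD, n = 3 and 6). The tiRNA-5 took 9.50% ± 1.82 of listed counts in control and 7.999% ± 2.78 in smoke-exposed lungs, a difference smaller than the spread between libraries.

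The pooled smoke-exposed set joined 2 groups whose estimated differences from control were unlike for some types, though 0 tsRNAs passed between them in the main fit. Against control, 0 tsRNAs passed in the COPD model (11 of 191, 5.76%, at unadjusted p below 0.05, with 9 or 4.71% higher and 2 or 1.05% lower) and 0 in BMSC-treated lungs (7 of 191, 3.66%, with 4 or 2.09% higher and 3 or 1.57% lower). Alternatives gave 0 to 3 calls in each of these comparisons. In the COPD model they were the 2 initiator methionine trailers and the threonine trailers T30 and T31, and 0 were called without COPD model 3 or without the 3 shallow libraries. In BMSC-treated lungs tRF-1:16-Leu-AAG-1-M2 was called without BMSC-treated 2 and by DESeq2, and without the 3 shallow libraries it was called with tRF-1:16-Leu-TAG-3 and tiRNA-1:33-Gly-CCC-3-M2. Between the 2 smoke-exposed groups 25 of 191 (13.1%) had an unadjusted p below 0.05, with 9 (4.71%) higher and 16 (8.38%) lower in BMSC-treated lungs, of which 0 passed adjustment (smallest adjusted p = 0.0636, edgeR), and alternatives gave 0 to 6 calls. The trailers had a median log2 difference from control of 1.31 in the COPD model and 0.09 in BMSC-treated lungs, and 23 of 25 were lower in BMSC-treated than in COPD model lungs. The COPD model median was 0.18 without COPD model 3, 0.77 without control 3 and 0.53 without the 3 shallow libraries. The BMSC-treated median lay near 0 and ran from -0.52, without BMSC-treated 2, to 0.56, without control 2. The tRF-5a gave the opposite order, at -0.07 in the COPD model and 0.73 in BMSC-treated lungs, with 17 of 17 higher in BMSC-treated lungs. With 1 library left out these medians ran from -0.44 to 0.27 in the COPD model and from 0.39, without BMSC-treated 2, to 0.97 in BMSC-treated lungs. Over the alternatives, the median difference between BMSC-treated and COPD model lungs stayed between -1.78 and -0.31 for trailers and between 0.43 and 1.55 for tRF-5a. Without the 3 shallow libraries it was -0.73 for trailers and 0.91 for tRF-5a. The trailers' value leaned on COPD model 3, without which it was -0.36, against -1.27 with it, and 16 rather than 23 of 25 were lower.

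**Figure D4:**
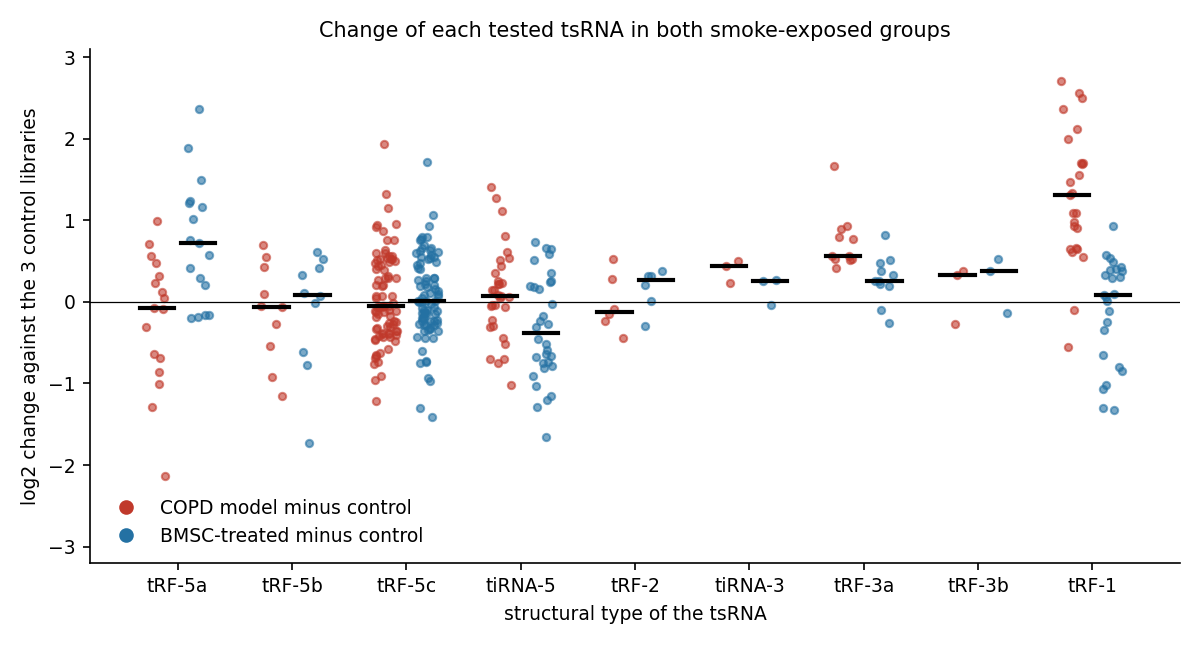
Log2 change of each tested tsRNA against the 3 shared control libraries (y axis) in COPD model lungs (red) and BMSC-treated lungs (blue), by structural type (x axis), with black bars for the medians. Trailers (tRF-1) have medians of 1.31 and 0.09 and tRF-5a of -0.07 and 0.73, so that the pooled contrast averages unlike estimates.

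The 3 fragments of smallest p among those higher in BMSC-treated than in COPD model lungs are given next. They were chosen for that difference, so their order in these 2 groups is not separate evidence of it. The short mitochondrial fragment tRF-1:16-chrM.Glu-TTC was at 36.1, 32.4 and 27.6 CPM in controls, 4.34, 8.83 and 8.52 in the COPD model and 56.6, 68.0 and 19.8 in BMSC-treated lungs. All COPD model values were below all controls, while 2 of 3 BMSC-treated values were above them. Between these groups the log2 difference was 2.72 ± 0.77 (adjusted p = 0.0636, edgeR, and 0.00866 to 0.429 over the alternatives), and pooled against control it was -0.78 ± 0.60. The fragment tRF-1:15-chrM.Gln-TTG was at 309, 378 and 212 CPM in controls, 150, 74.1 and 145 in the COPD model and 839, 576 and 113 in BMSC-treated lungs, with a difference of 2.05 ± 0.64 between the smoke-exposed groups (adjusted p = 0.0873). For tRF-1:15-chrM.Ile-GAT the values were 125, 127 and 87.0, then 104, 55.6 and 57.9, then 216, 436 and 33.3 CPM in the same order of groups. In both of these, BMSC-treated 3 was far below BMSC-treated 1 and 2, at or below the level of the COPD model. All 6 mitochondrial tRF-5a were higher in BMSC-treated than in COPD model lungs, with a median difference of 1.24. It was 0.71 both without BMSC-treated 2 and without the 3 shallow libraries, and without COPD model 2 it was 5 of 6.

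Among parent classes with at least 3 tsRNAs, the trailers of the threonine precursor had the lowest median difference between BMSC-treated and COPD model lungs. Here 1 library carried the difference. The forms of 30, 31 and 32 bases were chosen as the 3 of smallest p in that direction. The trailer tRF-+1:T30-Thr-CGT-1 was at 9.93, 39.9 and 19.4 CPM in controls, 20.6, 17.7 and 322 in the COPD model and 3.43, 18.8 and 12.6 in BMSC-treated lungs. COPD model 3, a shallow library, was far above all others, with 189 counts of this trailer, and the forms of 31 and 32 bases were at 372 and 293 CPM in it. The log2 difference between BMSC-treated and COPD model lungs was -3.38 ± 0.87 (adjusted p = 0.0636, edgeR), with an adjusted p of 0.000274 to 0.863 over the alternatives. Without COPD model 3 the median difference of the 5 threonine trailers was -0.54, against -2.99 with it, and without all 3 shallow libraries it was -1.54 over the 4 that could be tested.

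Within the dominant glycine series the 2 smoke-exposed groups lay on opposite sides of the controls. Shares inside the series of 5′ fragments from 1 tRNA do not depend on the scaling between libraries, and this measure was chosen after values of these fragments had been seen. The fragment of 32 bases, tRF-1:32-Gly-GCC-2-M3, which ends just before the anticodon, made up 51.6%, 54.7% and 51.8% of its series in controls, 62.3%, 59.7% and 58.3% in the COPD model and 41.1%, 48.0% and 41.1% in BMSC-treated lungs. No library of any group overlapped another group. The fragment 1 base shorter, tRF-1:31-Gly-GCC-2-M3, had the opposite order, with 25.6%, 27.2% and 27.5% in controls, 22.5%, 21.9% and 21.5% in the COPD model and 31.8%, 33.3% and 32.3% in BMSC-treated lungs. The group means differed by -16.7 percentage points for 32 bases and by 10.5 for 31 bases between BMSC-treated and COPD model lungs. With 3 libraries on each side the smallest two-sided exact permutation p is 0.1, which both reached, so the design cannot pass 0.05. Pooled against control the share of 32 bases was nearly level, 51.8% ± 9.58 in smoke-exposed and 52.7% ± 1.74 in control lungs (exact permutation p = 0.929, n = 6 and 3). The fragment of 31 bases of the second glycine series, tRF-1:31-Gly-GCC-1, had the same order of groups without overlap, at 20.7%, 24.2% and 28.3% on average in the COPD model, control and BMSC-treated lungs, whereas its fragment of 32 bases overlapped between groups.

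**Figure D5:**
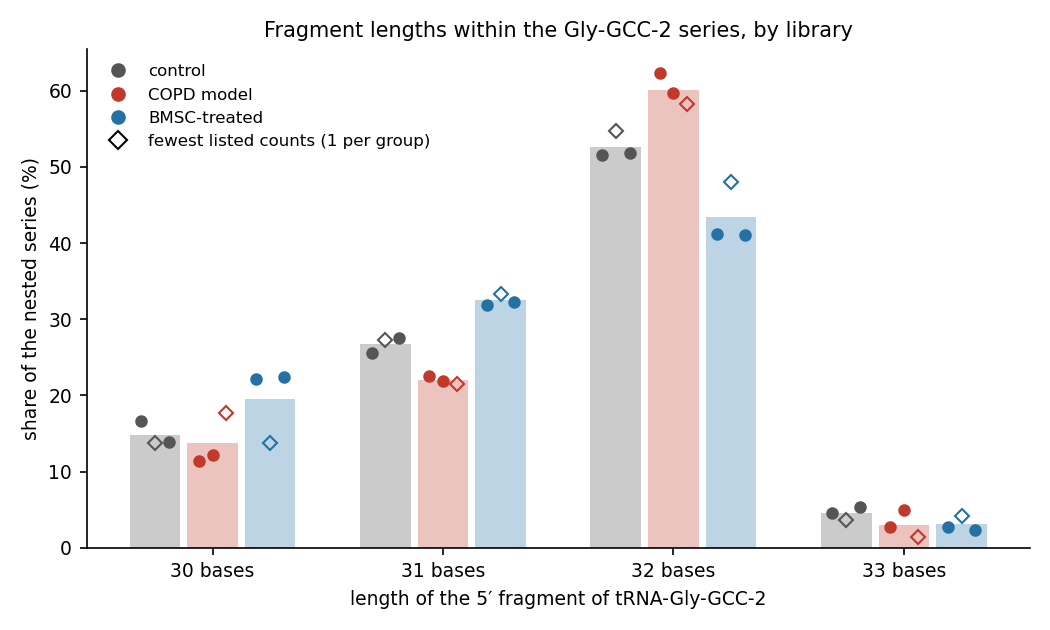
Share (%) of each length among the 5′ fragments of tRNA-Gly-GCC-2 in each library (points, with open diamonds for the library of fewest counts in each group), with bars for the group means. At 32 bases the COPD model libraries (58.3% to 62.3%) lie above and the BMSC-treated libraries (41.1% to 48.0%) below the controls (51.6% to 54.7%), and at 31 bases the order is reversed.

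The same shares were computed for all 12 series with at least 4 nested 5′ fragments, 64 shares in all, and 3 of the 64 had the 3 groups wholly apart, the 3 glycine shares just given. Pooled against control, 7 of the 64 had an exact permutation p below 0.05 and 0 passed adjustment (smallest adjusted p = 0.435). Of these, 2 were higher in all smoke-exposed libraries than in any control and 1 was lower. In the histidine series, tRF-1:32-His-GTG-2 made up 41.2%, 40.4% and 48.1% in controls, 28.1%, 34.3% and 23.9% in the COPD model and 39.3%, 30.4% and 20.5% in BMSC-treated lungs. It was lower in 6 of 6 smoke-exposed libraries, with BMSC-treated 1 close to the lowest control. In the first glutamate series of anticodon TTC, tRF-1:30-Glu-TTC-1 made up 1.38% in control and 2.96% in smoke-exposed lungs on average. In the second, tRF-1:31-Glu-TTC-2 made up 9.65% and 14.8%. These series were small, with as few as 336, 155 and 515 counts in a library for histidine and the 2 glutamate series, against 281482 for the first glycine series. Each of these 3 reached the smallest p of the design, 0.0238, which is adjusted to 0.435 over the 64 shares. A single share could therefore not pass here either.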

How the data were processed

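Small RNAs of mouse lung, pretreated to remove tRNA modifications, were sequenced in 9 libraries from 1.5 µg RNA each, per the labels' protocols. The authors deposited, per the file headers, raw counts of each tsRNA and its CPM, scaled to mapped reads, with sequences, types and parent tRNAs, and FPKM values of mRNAs, used here only to check the tissue. The submitters' processing notes name FastQC, cutadapt, Bowtie, StringTie and the mm10 build, without their roles or settings. How reads that match several tRNAs were assigned can affect the level of single fragments.

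Counts were tested in edgeR 4.0.16 (R 4.3.3; filterByExpr, TMM, quasi-likelihood test, 3 groups in 1 fit), contrasting the mean of both smoke-exposed groups with control, and p-values were adjusted by Benjamini-Hochberg over the 191 tsRNAs tested, with 6 residual degrees of freedom. Standard errors given with edgeR differences were derived from the test. Each is the size of the log2 difference divided by the square root of its F statistic. Two-sided exact permutation tests over libraries were run on shares (scipy 1.17.1). Alternatives were DESeq2 1.42.0, its size factors, limma 3.58.1 on log2(CPM + 1) and log2(CPM + 10), library totals from the deposited CPM, other filters, a 2-group fit, a replicate block and each library left out. Leaving out the 3 shallow libraries, and the shares within nested series, were chosen after seeing the data. The edgeR step was tested on simulated data. The 3 counts taken as a floor correspond to 1.12 to 3.36 deposited CPM, which covers counting error only, since reads carried no molecular identifiers that the sources used here mention.

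Named tsRNAs are the 5 of smallest p in each direction, the 10 most abundant, the 2 most abundant of each type, and the 3 of smallest p in each direction between the smoke-exposed groups, and fragments of the same seed or nested sequence are given as counts for the lower glycine and glutamate fragments. Other fragments named in the nested series were picked after their values were seen. The members and lists were chosen with earlier results of these data known. Gene names and positions came from RefSeq tables of GRCm38.p6 and were matched by parent class.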

Additional observations from a re-analysis of the deposited data

Results flagged for a closer look

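In 52 sets of 6 smoke-exposed values examined, 7 had 1 library far from the other 5. Some of these sets overlap, and how many would stand apart by chance was not tested. COPD model 3 stood apart for the threonine trailers, with tRF-+1:T30-Thr-CGT-1 at 322 CPM (next highest 20.6), tRF-+1:T31-Thr-CGT-1 at 372 CPM (next 40.2) and tRF-+1:T32-Thr-CGT-1 at 293 CPM (next 33.3), all after TMM scaling. The 3 trailers share a precursor and nearly all bases, so they count as 1 observation.

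BMSC-treated 2 stood apart in 4 related measures. The mitochondrial fragment tRF-1:22-chrM.Ser-GCT was at 139077 TMM-scaled CPM there (next 79499), the mitochondrial share of listed counts was 23.5% (next 11.1%), the tRF-5b share 20.4% (next 9.76%), and the tRF-5c share 66.3% (next lowest 83.0%). This fragment is a tRF-5b from the mitochondrion, so these values overlap. Both libraries were among the 3 with the fewest listed counts, and the part of depth in these values was not tested.

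The COPD model and BMSC-treated libraries lay on opposite sides of all controls in 3 glycine shares. Between BMSC-treated and COPD model lungs the share differed by 7.66 percentage points for tRF-1:31-Gly-GCC-1, by 10.5 for tRF-1:31-Gly-GCC-2-M3 and by -16.7 for tRF-1:32-Gly-GCC-2-M3. The difference between the 2 effects was not tested apart from the comparison of these 2 groups, and the 2 Gly-GCC-2 shares are parts of 1 whole.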

How the results depend on the processing

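All smoke-exposed against control gave 0 calls under every alternative run, with 1 to 16 tsRNAs at an unadjusted p below 0.05, the most without the 3 shallow libraries. Shares of types, classes, whole-library measures and nested series also gave 0 under each alternative, where a single one could not pass adjustment in these exact tests. Of the 10 tsRNAs of smallest p, 1 turned direction: tiRNA-1:34-Val-AAC-1 went to 0.48 without control 2 (-1.70 to 0.48 with 1 library left out) and 0.27 without the 3 shallow libraries. Of the other 27 named tsRNAs, 19 turned in at least 1 alternative, all with a log2 difference of 0.67 or less in size, among them the Gly-GCC-2 fragments of 30, 31 and 32 bases, so the report names no pooled change for these 19 one by one. BMSC-treated against COPD model gave 0 calls, but 5 with DESeq2 size factors, 2 with library totals from the deposited CPM, 1 with DESeq2, and 0 to 6 with 1 library left out, the most without control 2; over all alternatives the named threonine trailers and mitochondrial Glu and Gln fragments passed 30 times in total, and the cause was not tested. With a replicate block this comparison gave 3 calls, COPD model against control 1 (tRF-+1:T15-iMet-CAT-1, adjusted p = 0.0485 in edgeR), BMSC-treated against control 0 (smallest adjusted p = 0.174) and smoke-exposed against control 0. Same-numbered deviations correlated at 0.71, 0.74 and 0.20 for control and BMSC-treated, all above 0.1. Libraries of unlike number also passed 0.1, at 0.57 for control 3 with BMSC-treated 1 and 0.21 for control 1 with BMSC-treated 3. The other unlike-numbered pairs of these groups were at -0.77 to -0.25. The value of 0.74 joins 2 shallow libraries. These correlations therefore cannot show that the numbers pair libraries, and the main fit did not pair them. Same-numbered values were 0.47, -0.60 and -0.52 for control and COPD model, and 0.55, -0.37 and -0.08 for COPD model and BMSC-treated. The biological coefficient of variation was 0.545, and a count of 3 corresponds to at most 3.36 deposited CPM. With 6 against 2 libraries the smallest exact p is 0.0714, so leaving out a control ends any call on a share.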
